A study of Mus musculus with 2 samples.

Results

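The 40 genes described here encode the machinery of chromosome duplication and separation, and fall into 19 genes of DNA replication and the S phase and 21 genes of mitosis. They were chosen by symbol from the 27998 genes of the count tables, and each of them held at least 1 UMI (unique molecular identifier, the tag of 1 captured mRNA molecule). Cells came from Gli1-CreERT2; Ai9 mice of mixed background, in which a Cre recombinase expressed from the Gli1 locus and released by tamoxifen switches on the red protein tdTomato. Mice of 1 month received tamoxifen on 3 days and then, on 3 days, vehicle or 400 ng of teriparatide per g body weight, and each group had 5 mice (3 males and 2 females). The epiphysis was removed, and tdTomato+CD31-CD45-Ter119- cells of the metaphyseal bone under the growth plate of the femur were sorted and captured in 1 library per condition. How the mice of a group were divided over its library is not given in the sources used here. Both groups carried the same alleles and tamoxifen, and teriparatide, an active fragment of parathyroid hormone, was the difference between them. A cell made red by Gli1-CreERT2 keeps the colour, so the sort holds the labelled progenitors together with their descendants.

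The vehicle library held 1286 barcodes and the teriparatide library 2142, of which 549 and 1217 cells passed the limits on genes and mitochondrial UMIs, with a median of 10875 and 14556 UMIs. Cells were assigned to classes by summed UMIs of marker genes. Cells of a mesenchymal class that held a UMI of Ptprc, which encodes CD45, were left without a class. COP-like cells, after the chondrocyte-like osteoprogenitor, had Sox9, Acan and Col2a1 and numbered 63 under vehicle and 267 under teriparatide. Osteoblast-like (OB-like) cells numbered 119 and 143, preosteoblast-like (preOB-like) cells 26 and 33, and MALP-like cells, marrow stroma with Lepr, Cxcl12 and Adipoq, 179 and 98. Although CD45 and Ter119 had been gated out, erythroid-like cells (38 and 158), immature neutrophil-like cells (19 and 178), monocyte-like cells (25 and 134) and smaller hematopoietic classes were present in both libraries. The libraries also differed in sex: of the COP-like cells with a call, 51 were male and 9 female in the vehicle library against 230 and 22 in the teriparatide library, and of the OB-like cells 35 and 62 against 95 and 9. Values within male and within female cells are therefore given beside the pooled sums between the libraries and beside some single genes. With 1 library per condition there were no replicates and no test between conditions, and the 95% intervals given below cover counting error only, not the spread between mice.

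Before a cell divides, the MCM complex is loaded on DNA by Cdc6 and Cdt1, is activated with GINS, and opens the helix for polymerases held on the template by Pcna, while Rrm1, Rrm2, Tyms, Tk1 and Dut provide nucleotides. Mitosis genes follow later in the cycle: Cdk1 with cyclins A and B drives entry, kinesins and Tpx2 build the spindle, the centromere proteins and Bub kinases hold the chromosomes, and Cdc20 and Ube2c act with the anaphase-promoting complex to end it. In the growth plate and metaphysis, flat columnar chondrocytes divide repeatedly, resting chondrocytes rarely, and mature osteoblasts have left the cycle. Genes of the first group are classic targets of E2F factors, and genes of the second are classic targets of complexes that read CCAAT and CHR elements.

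The promoters of the members carried different letters in the 2 groups. RefSeq promoters (GRCm38.p6, 250 bases before to 50 after the start, 300 bases) were found for 34 of the 40 genes, and none was matched for Gins2, Ccne2, Mcm4, Ccna2, Aurkb and Tpx2. The search covered both strands for E2F-type words (TTGGCGC or TTCCCGC or TTCGCGC or TTGCCGC), for CCAAT, and for CHR-type words (TTTGAA or TTCGAA), where TTGGCGC can share bases with the reverse of CCAAT. An E2F-type word stood in 9 of 16 S-phase promoters (56.2%) and 3 of 18 mitosis promoters (16.7%), against 9.69% of the 27025 promoters in the table. A CHR-type word stood in 14 of 18 mitosis promoters (77.8%) and 2 of 16 S-phase promoters (12.5%), against 19.4% of all promoters. CCAAT was present in 16 of 18 mitosis and 10 of 16 S-phase promoters, against 37.9%. Each of the 14 mitosis promoters with a CHR-type word held CCAAT too (77.8% against 7.7% of all promoters).

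The 200 bases before the start are shown for 6 genes whose levels the results below turn on, 5′ to 3′ on the strand of the gene, with the searched words in capitals. Mcm5 (chr8:75109309-75109508, plus strand) and Mcm6 (chr1:128359706-128359905, minus strand) are shown as S-phase genes with clustered E2F-type words. Slbp (chr5:33652575-33652774, minus strand) is an S-phase gene with CCAAT alone in this window, and Ccnb1 (chr13:100786487-100786686, minus strand) is a mitosis gene whose window held no CHR-type word. Cdc20 (chr4:118437344-118437543, minus strand) and Cdk1 (chr10:69352913-69353112, minus strand) have both elements of the mitosis group, and Cdk1 also has E2F-type words.
Mcm5: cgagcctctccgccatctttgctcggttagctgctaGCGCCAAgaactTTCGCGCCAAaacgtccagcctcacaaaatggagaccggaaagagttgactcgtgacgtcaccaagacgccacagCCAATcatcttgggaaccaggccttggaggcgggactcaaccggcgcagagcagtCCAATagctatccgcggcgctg
Mcm6: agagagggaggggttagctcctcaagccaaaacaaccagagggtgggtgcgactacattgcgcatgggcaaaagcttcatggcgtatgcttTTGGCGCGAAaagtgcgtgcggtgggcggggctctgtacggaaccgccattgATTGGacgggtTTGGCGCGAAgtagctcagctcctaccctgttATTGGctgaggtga
Slbp: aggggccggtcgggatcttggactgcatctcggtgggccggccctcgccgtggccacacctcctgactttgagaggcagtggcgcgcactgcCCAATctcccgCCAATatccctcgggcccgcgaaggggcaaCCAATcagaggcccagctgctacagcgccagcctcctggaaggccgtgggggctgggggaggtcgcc
Ccnb1: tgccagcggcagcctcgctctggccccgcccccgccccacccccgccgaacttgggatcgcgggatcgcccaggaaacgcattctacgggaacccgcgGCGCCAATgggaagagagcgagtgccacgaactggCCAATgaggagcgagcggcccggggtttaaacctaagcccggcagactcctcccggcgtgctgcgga
Cdc20: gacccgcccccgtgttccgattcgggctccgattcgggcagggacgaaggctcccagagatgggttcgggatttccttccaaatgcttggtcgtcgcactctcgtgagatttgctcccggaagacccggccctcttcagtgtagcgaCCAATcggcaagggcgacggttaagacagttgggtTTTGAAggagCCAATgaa
Cdk1: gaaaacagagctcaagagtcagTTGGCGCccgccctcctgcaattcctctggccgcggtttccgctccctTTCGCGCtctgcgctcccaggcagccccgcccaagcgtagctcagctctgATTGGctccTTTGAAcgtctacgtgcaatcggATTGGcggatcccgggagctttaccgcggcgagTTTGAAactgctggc
In Mcm6 the pair of overlapping E2F-type words at 109 bases before the start recurred at 46 bases. In Cdc20 the CHR-type word began 18 bases before the start, between CCAAT words at 53 and 8 bases. Such matches describe the letters only.

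Levels are given as UMIs of a gene per 1000000 UMIs of the class (CPM) with an exact Poisson interval. Both groups of genes were highest outside the mesenchymal cells. Erythroid-like cells had 4749 CPM of S-phase genes under vehicle and 3387 CPM under teriparatide, and 5894 and 4123 CPM of mitosis genes. Among the classes with at least 200000 UMIs in a library, they were the highest class for 19 of 19 S-phase and 18 of 21 mitosis genes in the vehicle library, and for 12 and 17 in the teriparatide library, where granulocyte progenitor-like cells led for 6 S-phase genes. Rrm2, the regulated subunit of ribonucleotide reductase, stood at 766 and 565 CPM in the erythroid-like cells. Mki67, a coat protein of mitotic chromosomes, stood there at 802 and 721 CPM, and Ube2c at 967 and 585 CPM. In the COP-like cells the same 3 genes had 29.1 and 30.4, 12.0 and 19.4, and 17.7 and 29.9 CPM.

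**Figure D1:**
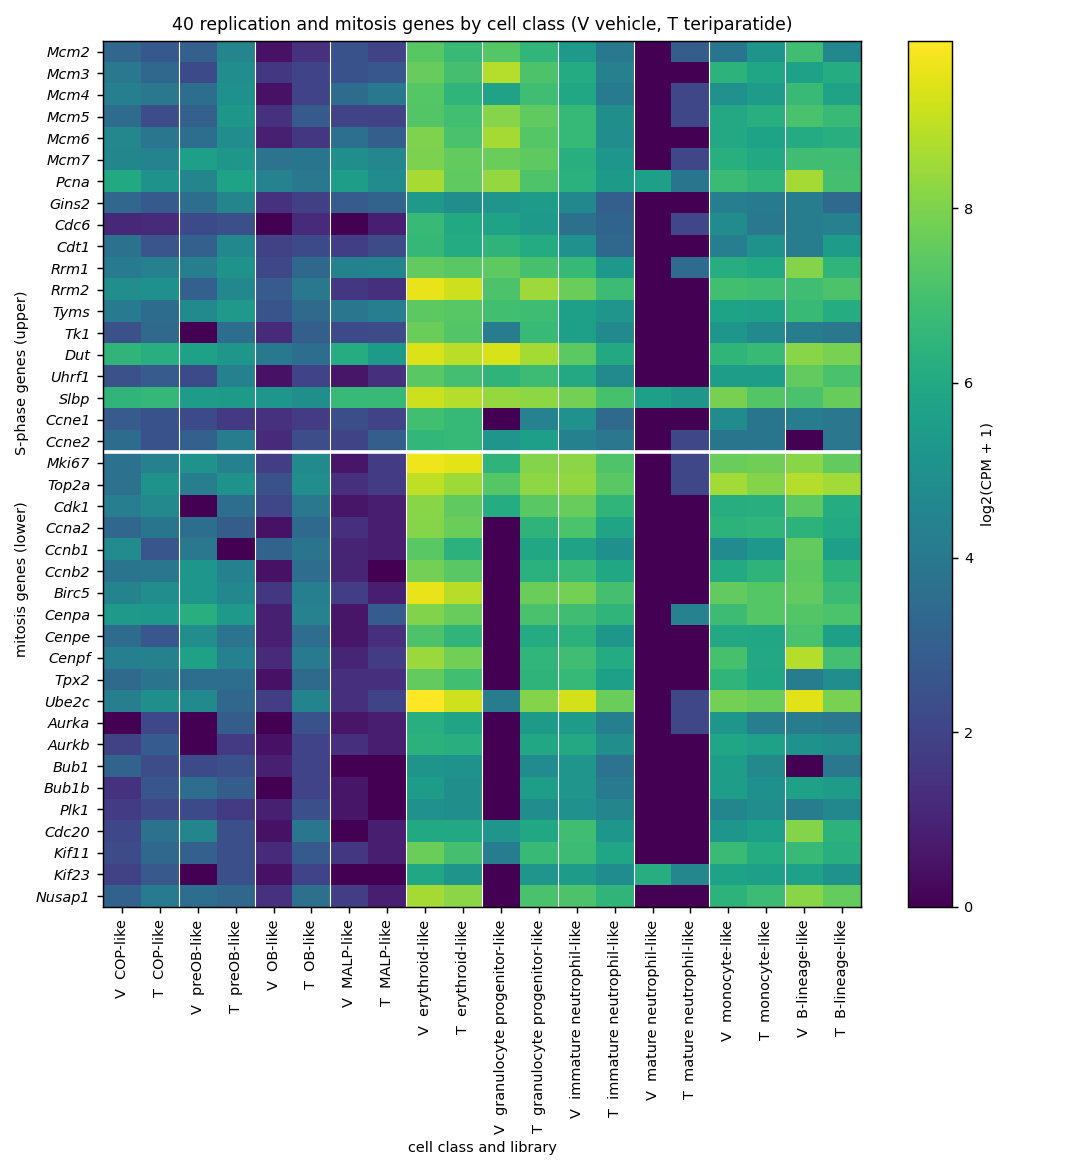
Levels of the 40 genes as log2(CPM + 1) by color, with genes in rows (19 S-phase genes above the white line, 21 mitosis genes below) and cell classes in columns, V for the vehicle and T for the teriparatide library. The erythroid-like columns are the brightest for most rows, the mature neutrophil-like columns are nearly empty, and among mesenchymal columns the MALP-like cells show Slbp, Dut and Pcna with little of the mitosis genes.

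Along the granulocytic lineage the levels of the teriparatide library were ordered by the stage of the cells, while the vehicle library held 2 granulocyte progenitor-like cells, too few for an order. Granulocyte progenitor-like cells (23 cells) had 2716 CPM of S-phase genes, immature neutrophil-like cells 658 CPM and mature neutrophil-like cells 83.4 CPM. Mitosis genes stood at 2348, 1420 and 56.7 CPM in the same order. In the mature cells 10 of 19 S-phase and 15 of 21 mitosis genes had no UMI at all in the teriparatide library, and 17 and 20 had none in the vehicle library, where only 10 cells were captured. Mature neutrophils do not divide, so their level is used here as the background of the method. RNA of the erythroid-like cells was scarce in the mesenchymal classes. Erythroid markers summed to 5259 and 5500.1 of every 10000 UMIs in their own class, to 0.171 and 0.903 in the COP-like cells, to 0.191 and 1.37 in the OB-like cells and to 1.69 and 2.50 in the MALP-like cells.

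**Figure D2:**
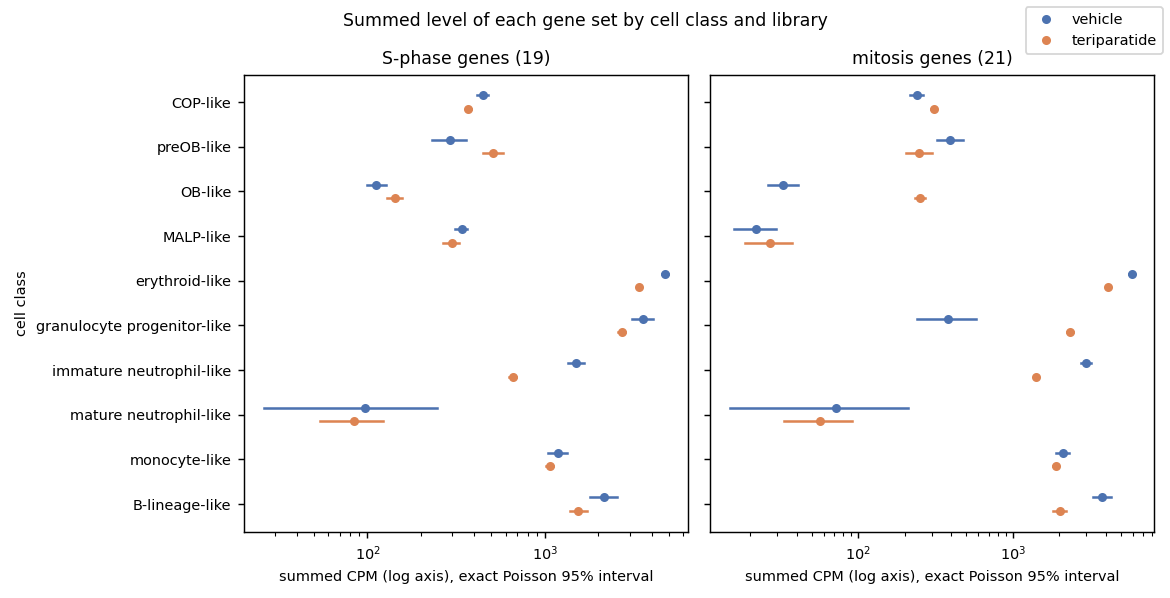
Summed CPM (log axis) of the 19 S-phase genes and of the 21 mitosis genes by cell class, with exact Poisson 95% intervals, vehicle in blue and teriparatide in orange. In the right panel the MALP-like cells of both libraries and the OB-like cells of the vehicle library lie between 21.8 and 32.7 CPM, near the mature neutrophil-like cells, while COP-like and preOB-like cells lie between 239 and 395 CPM.

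Within the mesenchymal classes the mitosis genes separated COP-like from MALP-like cells far more than the S-phase genes did. COP-like cells had 447 CPM of S-phase genes (784 UMIs) under vehicle and 369.9 CPM (2992 UMIs) under teriparatide, and MALP-like cells had nearly as much, 339 and 298 CPM. Mitosis genes stood at 239 and 309 CPM in the COP-like cells against 21.8 and 26.8 CPM in the MALP-like cells. OB-like cells had the least of the S-phase genes, 112 and 142 CPM. PreOB-like cells had 290.2 and 510.3 CPM of S-phase and 395 and 249 CPM of mitosis genes, from 26 and 33 cells. Against the mature neutrophil-like background (72.2 CPM, 14.9 to 211, and 56.7 CPM, 33.0 to 90.8), the mitosis level of MALP-like cells in both libraries and of OB-like cells in the vehicle library was not higher. The vehicle background was 3 UMIs in 10 cells, all of Kif23, and so cannot decide for any class of that library. The teriparatide background was 17 UMIs in 50 cells. The mitosis level of COP-like cells was above the background in the teriparatide library (297 to 321). In the vehicle library the COP-like interval (216 to 263) lay just past the background, and it covers counting error only. Without 1 cell rich in Ccnb1 alone, described below, the vehicle level was 219.6 CPM, so no verdict is given there.

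Slbp, Dut and Pcna made up most of the level that COP-like and MALP-like cells shared. Slbp, which binds the stem-loop of histone mRNA, Dut, which removes dUTP, and Pcna together held 54.1% and 55.3% of the S-phase UMIs of COP-like cells and 64.6% and 57.7% of those of MALP-like cells, against 34.5% and 32.5% in the erythroid-like cells. Slbp had 104 CPM in the MALP-like cells of both libraries, the level of the COP-like cells (89.5 and 97.6 CPM). Rrm2 separated the classes, with 2.08 and 1.57 CPM in MALP-like against 29.1 and 30.4 CPM in COP-like cells. Not every other member did so. Among the mesenchymal classes Rrm1 was highest in MALP-like cells under vehicle, and under teriparatide Tyms was higher in MALP-like than in COP-like cells. Without Slbp, Dut and Pcna, an alternative chosen after seeing the data, the S-phase level was 205 and 165 CPM in COP-like cells, 119.9 and 126 CPM in MALP-like cells, and 41.9 and 87.2 CPM in OB-like cells.

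Against the other mesenchymal classes combined, the S-phase sum of COP-like cells was higher by 1.04 on the log2 scale in the vehicle library (0.90 to 1.18) and by 0.75 in the teriparatide library (0.65 to 0.85). For the mitosis sum the difference was 2.26 (2.02 to 2.50) and 0.70 (0.59 to 0.81). The combined classes were mostly MALP-like and OB-like cells. Among single mesenchymal classes, preOB-like cells were highest for 4 of 19 S-phase and 15 of 21 mitosis genes under vehicle. Under teriparatide they were highest for 15 and 7. COP-like cells were highest for 13 and 5 under vehicle and for 3 and 10 under teriparatide. The preOB-like values rest on 26 and 33 cells. Among genes with at least 50 UMIs in the cells compared, a member was counted as higher or lower when it passed a fold of 1.5. In the vehicle library 6 of 9 S-phase and 4 of 4 mitosis genes were higher in COP-like cells and none was lower, where 18.4% of 8790 genes were higher and 27.5% lower. One of the 4, Ccnb1, rested on a single COP-like cell described below: without the cells rich in Ccnb1 alone it had 4.62 against 1.52 CPM (8 and 7 UMIs, under the minimum), which left 3 of 3. In the teriparatide library 7 of 18 S-phase and 13 of 18 mitosis genes were higher and 1 and 2 were lower, against 20.0% and 27.0% of 10290 genes. The minimum of UMIs was summed over both sides of this comparison. COP-like cells held 419 mitosis UMIs against 230 in the other classes under vehicle, and 2498 against 892 under teriparatide. Mitosis genes thus passed the minimum mostly through the COP-like cells, and these counts add nothing to the sums. The genes above the fold in the vehicle library included Pcna (1.06), Rrm2 (2.67), Dut (1.15), Ccnb1 (2.31) and Cenpa (2.96), each on the log2 scale, while Mcm7 (0.02) was level between the classes. In the teriparatide library Mcm5 was lower in COP-like cells, at 4.08 against 8.30 CPM (log2 difference -1.02, -1.74 to -0.32), and so were Ccnb1 (-0.68, but -0.07 without the cells rich in Ccnb1 alone) and Cenpe (-0.65). These differences hold in the same direction within male cells (1.19 and 0.42 for the S-phase sum, 3.83 and 0.32 for the mitosis sum) and within female cells (0.78 and 2.44, 2.82 and 4.18). Their size changed with the cells kept: the mitosis difference was 0.81 under vehicle with cells of up to 20% mitochondrial UMIs, 1.49 under vehicle and 2.36 under teriparatide without the 5 cells of each class and library with the most member UMIs, and 0.44 under teriparatide with classes from clusters.

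Inside the COP-like class, the mitosis level was higher in the columnar-type cells. Resting-type cells were called first, by at least 3 UMIs of Sfrp5, Cpm and Hhip per 10000, and numbered 24 and 104. Columnar-type cells were called among the rest, by at least 10 UMIs of Chad, Stc2 and Matn3 per 10000, and numbered 35 and 154. The median of these last 3 genes over all COP-like cells was 34.0 and 41.8 per 10000. Resting-type cells could thus hold them too, and the split rests mainly on Sfrp5, Cpm and Hhip. The names describe marker genes and not a place in the growth plate. The study had removed the growth plate and held its chondrocyte-like cluster unlikely to be ordinary chondrocytes of that tissue. Columnar-type cells had 331 and 437 CPM of mitosis genes against 31.6 and 90.9 CPM in resting-type cells, a log2 difference of 3.39 (2.69 to 4.18) under vehicle and 2.26 (2.07 to 2.46) under teriparatide. The S-phase sums differed less, by 0.84 (0.59 to 1.10) and 0.31 (0.19 to 0.43). Of the columnar-type cells, 5 held 89.5% of the mitosis UMIs under vehicle and 5 held 63.4% under teriparatide. With cells thinned as described below, the vehicle shares with mitosis UMIs were 14.7% (4.95 to 31.1) in columnar-type and 4.17% (0.105 to 21.1) in resting-type cells. The teriparatide shares were 7.24% (3.67 to 12.6) and 2.02% (0.246 to 7.11). These intervals overlapped, so the sums do not describe a difference across the cells. Within male cells the mitosis difference was 3.32 and 3.71 and the S-phase difference 1.04 and 0.40. No value was computed within female cells, which numbered 2 and 5 among the resting-type and 6 and 15 among the columnar-type cells. In the teriparatide library 14 of 14 mitosis genes with enough UMIs were higher in columnar-type cells by the fold, and 4 of 12 S-phase genes were, where 11.5% of 8561 genes were higher and 12.9% lower. The minimum of UMIs was summed over both types, which held 2251 (columnar-type) and 243 (resting-type) mitosis UMIs. Mitosis genes thus passed it mostly through the columnar-type cells, and their count adds nothing to the sum. The vehicle library left 1 mitosis and 3 S-phase genes for this count, of which 1 and 0 were higher (10.3% of 3989 genes higher, 16.5% lower). Cenpf, a kinetochore protein, had the widest gap, with 154 UMIs in columnar-type and 5 in resting-type cells of the teriparatide library (29.9 and 1.87 CPM). Of the S-phase genes, Rrm2 (1.52), Rrm1 (1.10), Tk1 (1.10) and Dut (0.78) were higher in the columnar-type cells, whereas Mcm4 (-0.44), Pcna (-0.29) and Slbp (-0.09) had differences under 0 whose intervals reached past it. Of the 243 mitosis UMIs in resting-type cells of the teriparatide library, 162 were in 1 cell. Male resting-type cells held 77 of the 243, so that cell was not called male. The difference within male cells leaves it out and does not show how the other cells behave.

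The mitosis UMIs were held by few cells. In the teriparatide library 5 of 267 COP-like cells held 57.2% of the class's 2498 mitosis UMIs, with 391, 307, 288, 239 and 203 UMIs each; all 5 were columnar-type, male, and passed the marker gate of 1 lineage only. In the vehicle library 5 of 63 cells held 82.8% of 419 UMIs, with 124, 80, 64, 40 and 39. S-phase UMIs were more evenly spread, and 41 of 267 and 9 of 63 cells were needed for 50% of them. In the OB-like class 2 of 143 cells, with 321 and 153 mitosis UMIs, held more than 50% of 744 in the teriparatide library. The largest number in a MALP-like cell was 3 UMIs under vehicle and 5 under teriparatide.

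**Figure D3:**
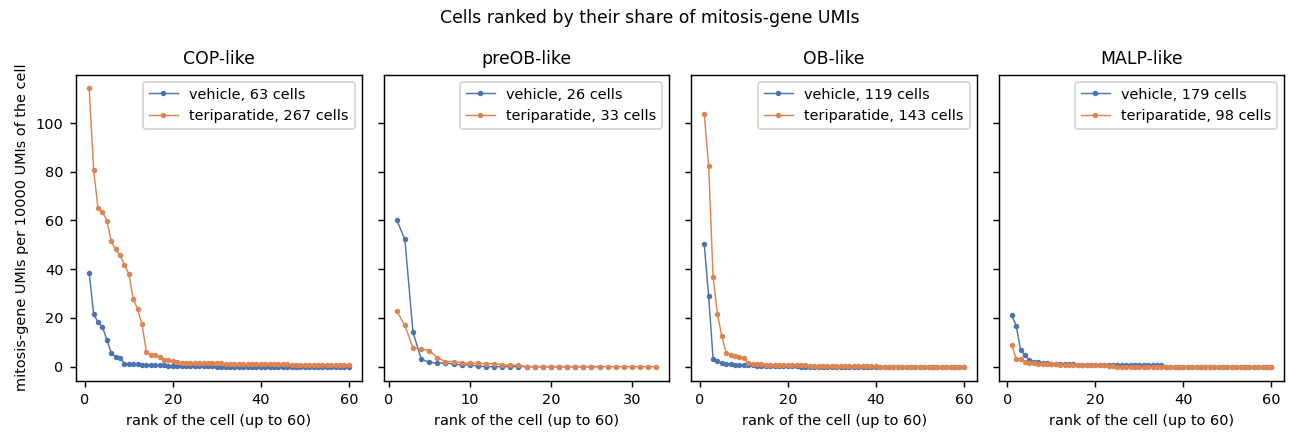
Mitosis-gene UMIs per 10000 UMIs of each cell (y axis), for cells ranked within each mesenchymal class (x axis, up to 60 cells), vehicle in blue and teriparatide in orange. A few cells stand above a flat floor in the COP-like, preOB-like and OB-like classes.

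Counted as cells, the share with mitosis UMIs was small in the mesenchymal classes, and the intervals of the libraries overlapped. To compare cells of unequal depth, each cell was thinned at random to 3903 UMIs, and a cell was counted when it kept at least 2 UMIs of a set (exact Clopper-Pearson intervals). Of the COP-like cells 7 of 62 under vehicle (11.3%, 4.66 to 21.9) and 13 of 260 under teriparatide (5.00%, 2.69 to 8.40) held mitosis UMIs, and 32.3% and 31.9% held S-phase UMIs. Of the 7 vehicle COP-like cells 1 was rich in Ccnb1 alone, as was 1 of the 3 vehicle OB-like cells (both described below). Before thinning the COP-like mitosis shares were 25.4% and 27.7%. The OB-like shares were 2.86% and 5.26%, the preOB-like shares 3 of 23 and 5 of 30 cells, the MALP-like 0.671% and 1.09%, and the erythroid-like 80.0% and 69.9%. Mature neutrophil-like cells, with a median of 4028 and 5440 UMIs against 29222 and 31074 in COP-like cells, held none in 34 thinned cells of the teriparatide library, which by a limit of 3 counts allows a share of up to 8.82%. The 5 thinned cells of the vehicle library held none either, too few for a limit of use (3 of 5). The intervals of the COP-like and OB-like shares reached below 8.82% in both libraries, so none of these shares can be told from background by itself. Before thinning, 1 of 10 and 3 of 50 mature neutrophil-like cells held at least 2 mitosis UMIs.

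**Figure D4:**
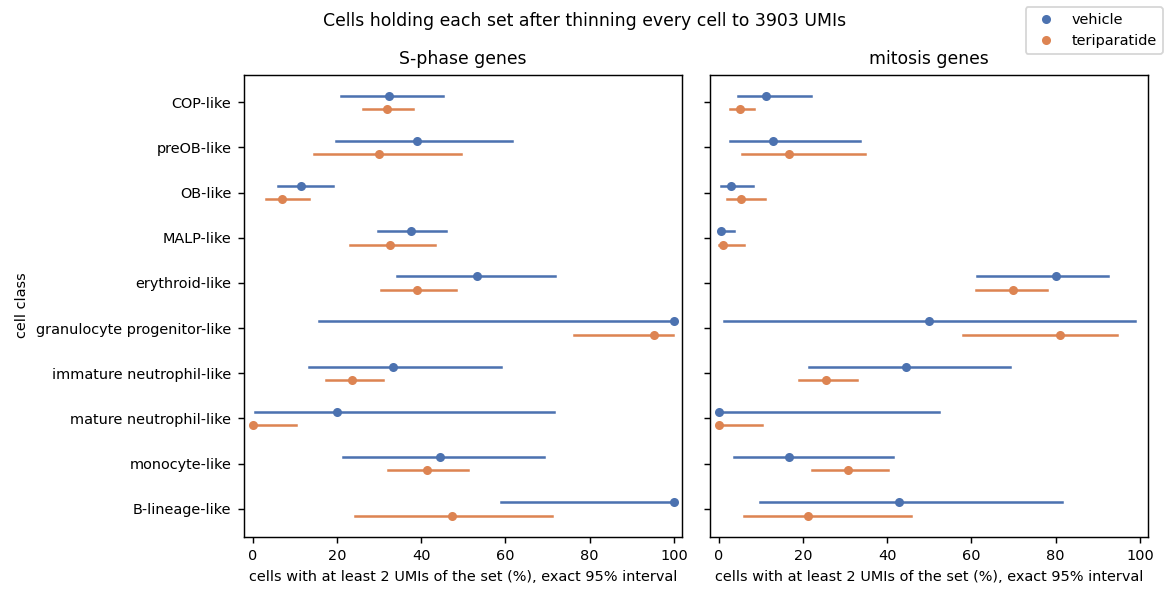
Percent of cells with at least 2 UMIs of the S-phase (left) or mitosis genes (right) after each cell had been thinned to 3903 UMIs, by class, with exact 95% intervals, vehicle in blue and teriparatide in orange. MALP-like cells have an S-phase share near that of COP-like cells and a mitosis share of 0.671% and 1.09%.

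The 2 sets met in the same cells more often in some classes than in others. Of the thinned erythroid-like cells, 16 and 48 held both sets, 8 and 38 mitosis genes alone, and 0 S-phase genes alone in either library. COP-like cells were the reverse, with 15 and 73 cells holding S-phase UMIs alone, 5 and 10 both, and 2 and 3 mitosis UMIs alone. MALP-like cells held S-phase UMIs alone in 55 and 30 cells and both sets in 1 and 0. COP-like cells with mitosis UMIs had 1464 and 1518 CPM of S-phase genes against 261 and 306 CPM in those without, and a median depth of 34907 and 35398 UMIs before thinning against 28981 and 31369.

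Between the libraries, the COP-like S-phase sum was lower with teriparatide by -0.27 on the log2 scale (-0.39 to -0.16) and the mitosis sum was higher by 0.37 (0.22 to 0.52). The median of all 9187 genes with at least 50 UMIs in the class stood at -0.20, and relative to it the S-phase sum was at -0.07 and the mitosis sum at 0.57. The S-phase difference was -0.58 within male cells (-0.70 to -0.45) and 1.31 within female cells (0.99 to 1.64), so that its sign was opposite between the sexes. The mitosis difference was 0.39 within male and 0.65 within female cells. It was 0.49 (0.34 to 0.65) without the 1 vehicle cell rich in Ccnb1 alone, a cell called female that is described below. Without the 5 cells of each class and library with the most member UMIs, the S-phase difference was 0.04 and the mitosis difference 1.73. These cells were picked by the values compared, and 5 are a larger part of 63 vehicle than of 267 teriparatide cells. The removal was thus unequal, and no direction is drawn from it. When barcodes with over 6000 genes were kept, they were 0.12 and 0.22.

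The replication genes of the COP-like cells are given in the order of their work. The MCM subunits, which form the helicase, had 8.55 and 5.69 CPM (Mcm2), 14.8 and 8.90 CPM (Mcm3), 18.2 and 14.7 CPM (Mcm4), 10.3 and 4.08 CPM (Mcm5), 23.4 and 14.0 CPM (Mcm6) and 22.2 and 20.8 CPM (Mcm7) in the vehicle and teriparatide libraries. All 6 were lower in the teriparatide library. The median log2 difference of all 9187 genes tested in the class was itself below 0, at -0.20, so this count alone does not set the MCM genes apart. The interval of the log2 difference lay below 0 for Mcm3 (-0.74), Mcm5 (-1.33) and Mcm6 (-0.74). Within female cells, with 1 UMI or none of Mcm2, Mcm3, Mcm5, Mcm6 and Mcm7 in the vehicle library, the order was the opposite. The loading factors had 1.14 and 1.36 CPM (Cdc6) and 12.0 and 5.07 CPM (Cdt1, log2 difference -1.24, -2.03 to -0.41), and Gins2, a GINS subunit, had 8.55 and 5.93 CPM. Pcna, the sliding clamp, had 63.3 CPM (52.0 to 76.2) and 33.6 CPM (29.8 to 37.9), a difference of -0.91 (-1.24 to -0.58) that was -1.14 within male and 0.29 within female cells. Its reads can be split with a processed copy, Pcna-ps2, which held 11 and 37 UMIs in these cells against 111 and 272 of Pcna.

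Among the genes of nucleotide supply, Rrm1 had 16.0 and 18.9 CPM, Rrm2 29.1 and 30.4 CPM, Tyms, which makes thymidylate, 15.4 and 10.4 CPM, and Dut 88.9 and 73.3 CPM. None of these 4 passed the fold, and Tyms came nearest to it (log2 difference -0.57). Tk1, the thymidine salvage kinase, was the S-phase gene above the fold, with 4.56 CPM (8 UMIs) and 9.64 CPM (78 UMIs), a difference of 1.08 (0.03 to 2.34). Uhrf1, which reads hemimethylated DNA behind the fork, had 4.56 and 6.18 CPM, and Slbp 89.5 and 97.6 CPM. The E cyclins, which open the S phase with Cdk2, had 6.27 and 4.70 CPM (Ccne1) and 10.3 and 4.70 CPM (Ccne2, difference -1.13, -1.97 to -0.23). In all, 1 of 17 S-phase genes was higher and 7 (Mcm2, Mcm3, Mcm5, Mcm6, Pcna, Cdt1 and Ccne2) were lower by the fold in the teriparatide library, against 8.91% and 17.1% of all genes, and their median difference was -0.53. With every ratio taken relative to the median of all genes, 2 were higher and 4 lower (13.8% and 7.70% of all genes), and with barcodes over 6000 genes kept, 2 and 2 of 18 (8.53% and 14.5%).

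Of the mitosis genes in COP-like cells, 9 of 17 were higher and 2 (Ccnb1 and Cenpe) lower by the fold in the teriparatide library, against 8.91% and 17.1% of all genes, with a median difference of 0.67. The minimum of UMIs was summed over both libraries, so a gene could pass it by the library where it was higher. The count therefore adds nothing to the sum. Both lower genes rested on 1 vehicle cell each, since all 18 vehicle UMIs of Cenpe were in 1 of 63 cells and most of those of Ccnb1 in another. The higher genes rested on few cells too, as 5 of 267 teriparatide cells held 57.2% of the mitosis UMIs. Cells with a UMI were 11.1% and 9.36% for Mki67, 7.94% and 5.62% for Nusap1, 6.35% and 7.12% for Top2a, and 4.76% and 9.36% for Cdc20. The count of genes thus does not describe a rise across the cells of the class. With every ratio taken relative to the median of all genes, 12 mitosis genes were higher and 2 lower, against 13.8% and 7.70% of all genes. With barcodes over 6000 genes kept, 3 of 21 were higher and 2 lower, against 8.53% and 14.5% of 9565 genes. Top2a, which untangles sister chromatids, had 12.5 and 31.9 CPM, a difference of 1.35 (0.72 to 2.05). Mki67 had 12.0 and 19.4 CPM (0.70, 0.04 to 1.43) and Cdk1, the kinase of mitotic entry, 17.7 and 24.4 CPM. Its cyclins had 8.55 and 13.6 CPM (Ccna2), 26.8 and 5.32 CPM (Ccnb1) and 13.1 and 13.8 CPM (Ccnb2). The kinases were scarce: Aurka had no UMI under vehicle and 28 UMIs under teriparatide, Aurkb had 2.85 and 6.31 CPM, and Plk1 2.28 and 3.59 CPM. A limit of 3 counts under vehicle makes Aurka at least 2.02-fold higher, if the 28 UMIs are taken as exact. In the spindle checkpoint, Bub1 had 7.98 and 4.08 CPM and Bub1b 1.71 and 5.32 CPM (3 and 43 UMIs). These pairs went opposite ways, and both intervals of the log2 difference reached past 0.

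Cdc20, the activator of the anaphase-promoting complex, had the highest ratio among the mitosis genes with UMIs in both libraries, at 3.42 CPM (6 UMIs) and 12.5 CPM (101 UMIs), a log2 difference of 1.87 (0.70 to 3.35) that was 2.14 within male and 2.27 within female cells. Ube2c, the ubiquitin-conjugating enzyme of the same complex, had 17.7 and 29.9 CPM (0.76, 0.22 to 1.35). At the centromere, Cenpa, the histone variant that marks it, had 38.8 and 37.6 CPM, Cenpe, a kinesin, 10.3 and 5.44 CPM, Cenpf 18.2 and 19.7 CPM, and Birc5, of the chromosomal passenger complex, 21.1 and 28.7 CPM. The spindle genes Kif11 (3.99 and 9.03 CPM), Kif23 (2.85 and 5.81 CPM), Nusap1 (7.41 and 16.1 CPM) and Tpx2 (17 and 105 UMIs) were all higher in the teriparatide library, with an interval above 0 for Kif11 and Nusap1. Within male cells 5 of 13 mitosis genes with at least 50 UMIs were higher by the fold and 0 lower, against 9.24% and 20.9% of 8810 genes. This minimum too was summed over both libraries, so the count adds nothing to the sum within male cells.

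**Figure D5:**
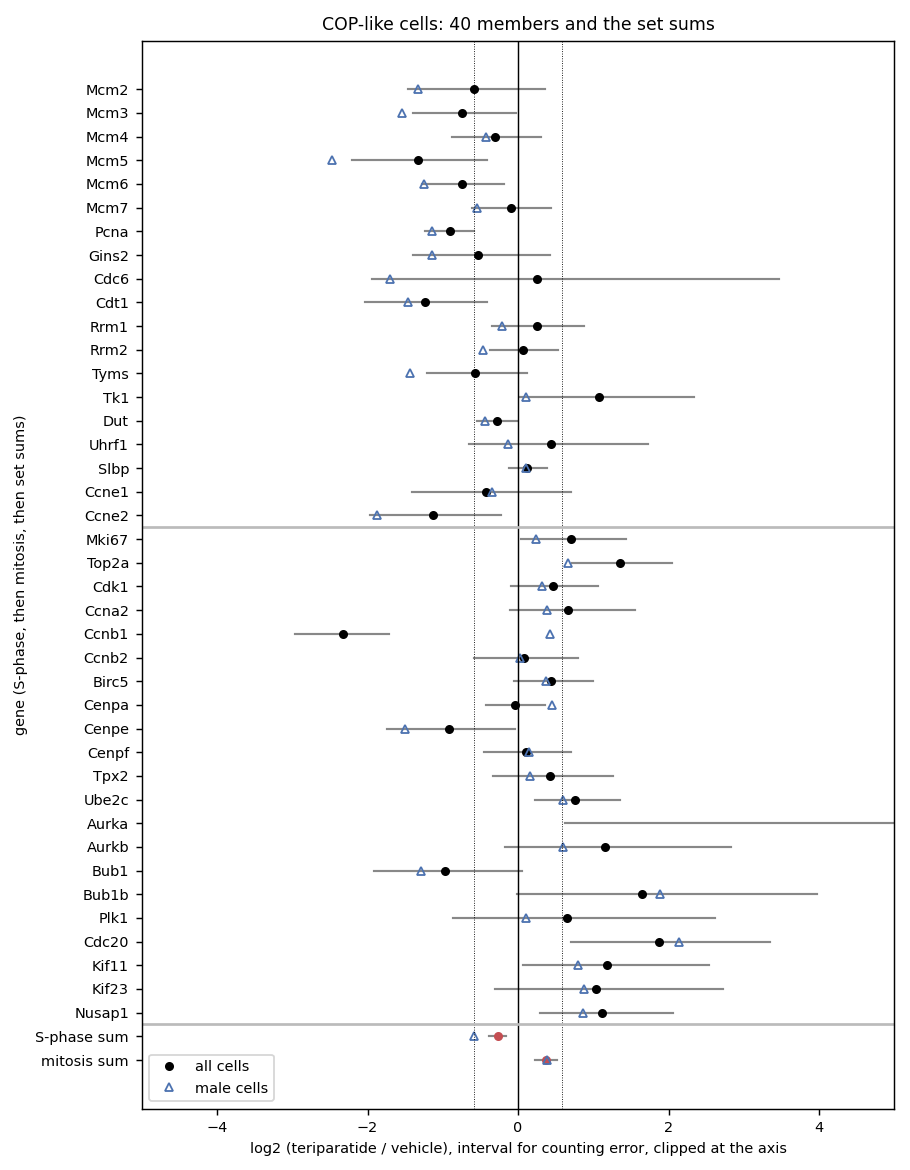
Log2 ratio of teriparatide to vehicle CPM in COP-like cells for each gene (black, sums in red) with 95% intervals for counting error, and the ratio within male cells (blue triangles); dotted lines mark the fold of 1.5. Most S-phase genes lie left of 0 and most mitosis genes right of it, Ccnb1 at -2.33 stands apart while its male value is 0.42, and Aurka, with 0 vehicle UMIs, has an interval but no point.

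Most of the vehicle Ccnb1 UMIs were in 1 cell. A vehicle COP-like cell with 23837 UMIs held 39 UMIs of Ccnb1 and 0 of the other 20 mitosis genes, with 7 S-phase UMIs. Without it Ccnb1 had 4.62 and 5.32 CPM (log2 difference 0.20), against -2.33 (-2.96 to -1.71) with it. This cell was looked for after the values had been seen. In all, 5 vehicle and 9 teriparatide cells of any class held at least 10 Ccnb1 UMIs, and 2 and 1 of them held fewer than 3 UMIs of other mitosis genes. The other 2 such cells were OB-like, with 18 Ccnb1 UMIs of 6243 under vehicle and 14 of 37190 under teriparatide, and neither had any other mitosis UMI. Cells with like counts of Ccnb1 elsewhere had many: 15 UMIs stood beside 292 others in a COP-like cell and 18 beside 316 in an erythroid-like cell.

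In the OB-like cells, all 8 mitosis genes with at least 50 UMIs were higher by the fold in the teriparatide library, where 7.80% of 6767 genes were higher and 11.2% lower. The minimum was summed over both libraries, and the class held 79 mitosis UMIs under vehicle and 744 under teriparatide. In the latter, 5 of 143 cells held 90.9% of them. Genes therefore passed the minimum mostly through the teriparatide library, and the count adds nothing to the sum. The mitosis sum stood at 32.7 CPM in 119 vehicle cells and 251 CPM in 143 teriparatide cells, a log2 difference of 2.94 (2.60 to 3.29). Top2a had 4.56 CPM (2.28 to 8.16) and 28.3 CPM (22.6 to 35.0), Mki67 2.49 and 25.6 CPM, Cdk1 3.32 and 14.5 CPM, Cdc20 0.415 and 13.8 CPM, Plk1 0.829 and 4.38 CPM and Ccnb1 7.88 and 13.1 CPM. Without the 2 cells rich in Ccnb1 alone, Ccnb1 had 0.416 CPM (1 UMI) and 8.53 CPM, and the difference of the mitosis sum was 3.30 (2.92 to 3.70). Aurka had 0 and 14 UMIs, at least 3.79-fold higher by the limit of 3 counts, if the 14 UMIs are taken as exact. The difference was 4.64 within male cells and -1.42 within female cells, where the teriparatide library had 3 mitosis UMIs, and it was 1.27 without the 5 cells with most member UMIs, 1.33 after thinning, 1.60 with barcodes over 6000 genes kept and 0.90 with cells of up to 20% mitochondrial UMIs. Osteocyte-type cells, marked by Mepe, Dmp1, Phex and Sost, held no mitosis UMI in 9 vehicle and 18 teriparatide cells, which by the limit of 3 counts allows a share of up to 21.4% in the 14 thinned cells of the teriparatide library and sets no useful limit in the 6 of the vehicle library. The S-phase genes of the OB-like class had 112 and 142 CPM (0.34, 0.12 to 0.57), and of 5 tested Rrm2 (6.22 and 14.8 CPM) was higher by the fold. That difference was -0.42 after thinning and -0.46 with barcodes over 6000 genes kept. Pcna (19.9 and 14.5 CPM), Mcm5 (1.66 and 6.06 CPM), Mcm6 (0.829 and 2.02 CPM), Tyms (4.97 and 9.77 CPM), Ccne1 (1.66 and 2.36 CPM) and Ccne2 (1.24 and 4.04 CPM) were at low levels.

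In MALP-like cells no mitosis gene reached 50 UMIs. The mitosis sum of 42 and 34 UMIs gave a log2 difference of 0.30 (-0.40 to 0.98), an interval that reached past 0 on both sides. The value was -0.53 within female cells and 3.61 with barcodes over 6000 genes kept, which added 3 vehicle and 1 teriparatide barcodes to the class. Of 6 S-phase genes tested, none was higher and 2 were lower by the fold with teriparatide, against 8.08% and 9.66% of 7316 genes. These were Pcna (44.7 and 26.8 CPM) and Dut (70.1 and 40.9 CPM), with differences of -0.58 and -0.34 within male cells. Mcm5 had 3.12 and 3.15 CPM, Mcm6 11.4 and 7.08 CPM, Tyms 14.0 and 18.1 CPM, Ccne1 4.15 and 3.15 CPM, Ccne2 3.12 and 7.08 CPM, Mki67 0.519 and 2.36 CPM, Top2a 1.56 and 2.36 CPM, and Cdc20 0 and 0.787 CPM. Cdk1 and Aurka each had 1 UMI in either library. In preOB-like cells none of the 40 genes reached 50 UMIs. The mitosis difference of that class was -0.67 (-1.06 to -0.28) in all cells, 3.24 within male and -2.28 within female cells, and 1 vehicle cell held 75 of the 109 UMIs. It was 1.36 without the 5 cells with most member UMIs, 1.37 with barcodes over 6000 genes kept and 2.22 with classes from clusters, and 10 of 26 and 8 of 33 cells of the class lay near the threshold of its gate, so that no direction can be given. Its S-phase difference was 0.81, with 105 of 234 teriparatide UMIs in 1 cell. Pcna had 21.8 and 52.3 CPM there, Mki67 32.6 and 19.6 CPM and Top2a 18.1 and 32.7 CPM, from 5 to 24 UMIs each.

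Among the hematopoietic classes, erythroid-like cells had less of both sets in the teriparatide library, by -0.49 for S-phase genes (-0.56 to -0.42) and -0.52 for mitosis genes (-0.58 to -0.45), beside a median of -0.16 over 2702 genes. Here 6 of 19 S-phase and 9 of 21 mitosis genes were lower by the fold and 0 of either were higher, against 15.9% and 10.3% of all genes. Pcna had 389 and 181 CPM, Mcm6 254 and 135 CPM, Ccnb1 165 and 82.1 CPM and Aurka 76.2 and 53.8 CPM, while Ccne2 (93.1 and 98.9 CPM) and Cdc20 (63.5 and 62.5 CPM) had differences of 0.09 and -0.02. The S-phase difference was -0.99 within male and 0.47 within female cells, and the mitosis difference -0.46 and -1.13. The sums of immature neutrophil-like cells differed more, from 19 and 178 cells. S-phase genes had 1496 and 658 CPM (-1.18, -1.34 to -1.02) and mitosis genes 2991 and 1420.0 CPM (-1.07, -1.19 to -0.96). Within male cells these differences were -0.33 and -1.06, and within female cells -1.30 and -0.72. Of the 19 vehicle cells, 5 held 87.9% of the S-phase and 87.4% of the mitosis UMIs. After thinning, 33.3% and 23.6% of the cells held S-phase UMIs, and 44.4% and 25.5% held mitosis UMIs. The intervals of these shares overlapped between the libraries, so the sums do not describe a difference across the cells. In monocyte-like cells the sums had 1187 and 1065 CPM and 2106 and 1898 CPM.

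The neighbours of these genes in the cycle were followed with lists of further genes. Of 22 other replication genes with enough UMIs in COP-like cells, 0 were higher and 3 lower by the fold in the teriparatide library, namely Rpa2 (30.2 and 15.2 CPM), Fen1 and Pole2, and of 22 other mitosis genes 8 were higher and 0 lower. Of all genes 8.91% were higher and 17.1% lower, so the share of lower replication genes was not above that of all genes. The minimum was summed over both libraries, and genes such as Ckap2l (2 and 51 UMIs) passed it through the teriparatide library. Nothing further is read from the count of higher mitosis genes. Spc25, of the Ndc80 complex, had 8 and 105 UMIs, Ckap2 2.28 and 6.92 CPM and Ckap2l 1.14 and 6.31 CPM. The transcription factors of the mitosis program had few UMIs, with 3 and 28 for Foxm1 and 6 and 18 for Mybl2. Of 13 G1 cyclins, kinases and E2F-Rb factors with enough UMIs, 2 were higher and 4 lower. The higher genes were Tfdp2, an E2F partner, at 13 and 178 UMIs (1.57, 0.76 to 2.51), and Rbl2, a relative of Rb (0.67). The lower ones were E2f1 at 12.5 and 5.19 CPM (-1.27, -2.05 to -0.46), E2f4 at 28.5 and 14.3 CPM (-0.99), Ccnd2 and Cdk4, and E2f8, under the minimum of UMIs, had 10.8 and 2.84 CPM. In OB-like cells 5 of 6 other mitosis genes with enough UMIs were higher, against 7.80% of all genes, among them Hmgb2 with 26.9 and 81.8 CPM. Here too the minimum was summed over both libraries, so genes higher in 1 of them passed it more easily.

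The D cyclins and their kinases carry growth signals to the Rb proteins. In the COP-like cells Ccnd1, Ccnd2, Ccnd3 and Cdk4 had lower values in the teriparatide library, with Ccnd2 and Cdk4 past the fold. Ccnd1 had 150.5 and 112 CPM, Ccnd2 51.9 and 27.8 CPM (-0.90, -1.26 to -0.53), Ccnd3 96.3 and 65.7 CPM and Cdk4 209 and 118 CPM (-0.83). Cdk6 had 100.3 and 88.4 CPM (-0.18, -0.42 to 0.06), near the median of all genes (-0.20). Within male cells Ccnd2 was at -1.22 and Cdk4 at -0.97, and within female cells at 2.50 (2 and 35 UMIs) and 0.21. Ccnd1 and Cdk6 were at 0.15 and 0.20 within female cells. In OB-like cells Ccnd1 had 10.4 and 33.0 CPM (1.67, 1.03 to 2.37), Ccnd2 72.5 and 111 CPM and Cdk6 3.32 and 12.8 CPM, higher in the teriparatide library, and so had Ccnd3 (44.8 and 63.6 CPM), whereas Cdk4 had 121 and 88.6 CPM (-0.45, -0.70 to -0.21). The Ccnd1 difference was 0.34 within male cells (-0.48 to 1.26) and 3.87 within female cells. For Cdk4 the sexes had opposite signs, at -0.35 within male (-0.75 to 0.05) and 0.65 within female cells (0.15 to 1.12). Cdk6 was at 0.20 within male (-1.12 to 1.78) and 6.16 within female cells (1 and 11 UMIs), and Ccnd2 at 1.10 and 0.55. Of 8 inhibitors tested in COP-like cells 1 was higher and 1 lower by the fold, near the share of all genes (8.91% higher and 17.1% lower). These were Cdkn2d with 26.8 and 47.1 CPM (0.81, 0.37 to 1.28) and Gadd45a with 107 and 61.1 CPM (-0.80, -1.05 to -0.55). Cdkn1c (p57) had 327 and 427 CPM, Cdkn1b 30.8 and 32.9 CPM, Cdkn2c 48.4 and 57.6 CPM, and Cdkn1a (p21) 189.8 and 160.2 CPM. For Cdkn1a the log2 difference was -0.92 in OB-like cells, where it had 325 and 171 CPM (-1.34 within male and -0.27 within female cells). In MALP-like cells it was -2.03 (-2.43 to -1.65), from 206 to 50.4 CPM, and -1.51 within male and -1.94 within female cells.

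The genes outside the list whose log2(CPM + 100) was most like the sums over COP-like cells were described by Pearson's r, with cells of 1 library as points that share that library. In the teriparatide library (267 cells, 4250 genes) the mitosis sum was most like Stmn1, a tubulin-binding protein, at 0.85, Lockd at 0.82, Cks2 at 0.72, and Hmgb2 and H2afz at 0.70. In the vehicle library (63 cells, 1184 genes) Hmgb2 led at 0.74 and H2afz, a histone variant, followed at 0.61. For the S-phase sum the values were lower, with Stmn1 at 0.54 and Tubb5 at 0.49 in the teriparatide library and Ybx3 at 0.48 in the vehicle library, where total UMIs themselves stood at 0.38.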

How the data were processed

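Single-cell 3' libraries (10x Genomics, v2 chemistry) of 1 vehicle and 1 teriparatide sample were used. The authors deposited UMI counts per gene and barcode, not normalized, made with Cell Ranger 2.1.0 and mm10 per the labels, while the headers of the deposited matrices name version 3.1.0, so the version is uncertain. Barcodes with 200 to 6000 genes and at most 10% mitochondrial UMIs were kept (549 and 1217 cells), and 2 barcode sequences occurred in both libraries. Cells were put in classes by marker UMIs per 10000, with thresholds set after looking at the marker distributions, and 3 and 7 COP-like, 10 and 8 preOB-like, 12 and 12 OB-like, and 7 and 10 MALP-like cells lay between 0.5 and 2 times their threshold. No doublet caller was run, and cells passing more than 1 lineage gate (25 and 65) were left out as an alternative. Sex was called from Xist and Y-linked UMIs. The members and lists were chosen with earlier results of these data known. From the further replication list 1 gene was left out and is not reported here.

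CPM had exact Poisson intervals, log2 ratios conditional binomial (Clopper-Pearson) intervals and shares Clopper-Pearson intervals, all at 95%. A gene was counted past a fold of 1.5 among genes with at least 50 UMIs in the cells compared. This minimum was summed over both sides of a comparison, so a gene could pass by the side where it was higher. Named were all members in COP-like cells, 14 of them in other classes, fixed genes of the further lists with up to 3 of the largest ratios a list, and the genes most like the sums. The ratio calculation was tested on simulated data. Alternatives were other limits on genes and mitochondrial UMIs, clusters in place of gates, 1 sex, thinning, median scaling and other minimums. Python 3.11.15, numpy 2.4.6, scipy 1.17.1, pandas 2.3.3 and, for clusters, R 4.3.3 with Seurat 5.3.0 were used. Promoters were from RefSeq, GRCm38.p6.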

Additional observations from a re-analysis of the deposited data

Results flagged for a closer look

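The S-phase sum of COP-like cells was lower with teriparatide within male cells (log2 difference -0.58) and higher within female cells (1.31). It was picked out because the sexes moved in opposite directions. Female cells numbered 9 under vehicle and 22 under teriparatide, with 92 and 707 S-phase UMIs, and the difference between the sexes was not tested.

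The mitosis sum of preOB-like cells had the same kind of opposition, at 3.24 within 9 and 19 male cells and -2.28 within 10 and 4 female cells. The male cells of the vehicle library held 3 mitosis UMIs, 1 vehicle female cell held 75, and this difference was not tested either.

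Barcodes with over 6000 genes, outside the comparisons, had 2552 CPM of mitosis genes in 13 vehicle barcodes and 2840.3 CPM in 38 teriparatide barcodes, above the 72.2 and 56.7 CPM of the mature neutrophil-like cells. Of these, 5 and 19 passed the COP-like gate, with 2039.8 and 2184 CPM against 239 and 309 CPM in the COP-like cells that were kept. Their median was 46138 and 57135 UMIs, and whether they held 1 cell or more was not tested.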

How the results depend on the processing

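Values are log2 differences unless named, in the order S-phase then mitosis. Leaving out cells of 2 lineage gates moved 0 of 28 results. With no upper limit on genes the teriparatide difference was 0.12 and 0.22 in COP-like cells, -0.46 and 1.60 in OB-like cells, and for mitosis 1.37 in preOB-like and 3.61 in MALP-like cells. This added 1 OB-like and 1 preOB-like barcode in each library, and 3 vehicle and 1 teriparatide MALP-like barcodes. COP-like cells against other mesenchymal cells then had 1.21 for S-phase genes (teriparatide) and 2.57 for mitosis genes (vehicle). Of the COP-like members, 2 of 18 S-phase genes were higher and 2 lower by the fold, and 3 of 21 mitosis genes were higher and 2 lower. Of all genes 8.53% were higher and 14.5% lower. The teriparatide share of mitosis-positive COP-like cells was 9.68%. With up to 20% mitochondrial UMIs the differences were 0.24 and -0.26 in preOB-like and 0.01 and 0.90 in OB-like cells, and the mitosis difference of COP-like against other cells was 0.81 (vehicle) and 0.54 (teriparatide). With classes from clusters, mitosis had 2.22 in preOB-like and 2.35 in OB-like cells, and COP-like against other cells 0.62 and 0.44 (teriparatide).

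Within male cells the differences were -0.58 for S-phase genes in COP-like, 1.48 and 3.24 in preOB-like, 0.78 and 4.64 in OB-like and, for S-phase genes, 0.03 in MALP-like cells. COP-like against other cells had 1.19 and 3.83 (vehicle) and 0.42 and 0.32 (teriparatide). Of the COP-like members, 0 of 12 S-phase genes were higher and 5 lower by the fold, and 5 of 13 mitosis genes were higher and 0 lower. Of all genes 9.24% were higher and 20.9% lower. Within female cells the differences were 1.31 and 0.65 in COP-like, -0.46 and -2.28 in preOB-like, -0.88 and -0.53 in MALP-like and, for mitosis, -1.42 in OB-like cells. COP-like against other cells had 0.78 and 2.82 (vehicle) and 2.44 and 4.18 (teriparatide), and mitosis-positive shares were 22.2% and 18.2%. Thinned to 1 depth, COP-like cells had -0.11 for S-phase genes, OB-like cells -0.42 and 1.33, and COP-like against other cells 0.62 and 1.53 (vehicle) and 0.91 for mitosis (teriparatide). Scaled by the median ratio, COP-like cells had -0.07 and 0.57, with 2 of 17 S-phase genes higher and 4 lower (13.8% and 7.70% of all genes).

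The next alternatives were chosen after seeing the data. Without the 5 cells of each class and library with the most member UMIs, the differences were 0.04 and 1.73 in COP-like, -0.62 and 1.36 in preOB-like and -0.22 and 1.27 in OB-like cells, and COP-like against other cells had 0.62 and 1.49 (vehicle) and 1.17 and 2.36 (teriparatide). Taking 5 cells removed a larger part of the smaller classes, so this removal was uneven. Without Slbp, Dut and Pcna the S-phase difference was 1.06 in OB-like and 0.07 in MALP-like cells, and COP-like against other cells 1.32 (vehicle) and 0.39 (teriparatide). Beyond what each alternative leaves out, the cause was not tested. Without 1 COP-like cell rich in Ccnb1 alone, Ccnb1 went from -2.33 to 0.20, and without all 3 such mesenchymal cells from 2.31 to 1.61 (vehicle) and -0.68 to -0.07 (teriparatide) in COP-like against other cells. No paired analysis was possible because each condition had 1 library, and none could be left out. Depth limits single members: 2 of 19 S-phase and 4 of 21 mitosis genes had under 50 UMIs in COP-like cells, and all 40 in preOB-like cells.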

Other observations

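Kif23, a kinesin of the midbody, had 3 of 3 mitosis UMIs in the mature neutrophil-like cells of the vehicle library and 7 of 17 in those of the teriparatide library, where Cenpa had 6. It was looked for after the values had been seen. The cells left without a class (52 and 75) had 719.9 and 1738 CPM of S-phase genes and 982 and 912 CPM of mitosis genes, above all mesenchymal classes. They had passed no gate, or had passed a mesenchymal gate while holding a UMI of Ptprc, and 6 and 28 of them held Ptprc. In the vehicle library 1 of these cells held 302 of the 438 mitosis UMIs, and in the teriparatide library 1 held 351 S-phase UMIs.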
